A study of Mus musculus with 20 samples.

Results

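Saa3 and Lcn2, 2 of the 55536 genes counted in hippocampal RNA, encode secreted acute-phase proteins and were chosen by their counts in mice given lipopolysaccharide (LPS) against mice given saline. Their levels in that contrast are therefore described and not tested. LPS is a bacterial cell wall component that sets off inflammation when injected. Libraries came from the hippocampus of male mice aged 12 weeks, of the strain labelled C57BL/6J, taken on day 7 after a single intraperitoneal injection. The groups were Fkbp5 knockout (KO) mice given 3 mg/kg LPS, wild-type (WT) mice given 3 mg/kg LPS, KO mice given saline and WT mice given saline, with 5 libraries in each of the 4 groups. FKBP5 is a co-chaperone of the glucocorticoid receptor and reduces its sensitivity to hormone. The labels give neither the allele nor the cells in which the gene was deleted, and they do not say whether each library came from its own animal, so p-values measure the spread between these libraries only.

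Serum amyloid A proteins are lipoprotein-associated acute-phase proteins. In mice Saa1 and Saa2 are made mainly by the liver, whereas Saa3 is made mainly outside it, by macrophages, fat cells and epithelia among others. Lipocalin 2, the product of Lcn2, binds iron-carrying siderophores and thereby withholds iron from bacteria. It is stored in neutrophil granules and is also made by reactive astrocytes, endothelium and epithelium. Both genes are known targets of inflammatory signalling through Toll-like receptors and the cytokines IL-1, TNF and IL-6, which act on NF-kB, STAT and C/EBP transcription factors.

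Total counts per library were 16652992 to 27230202. Summed markers of hippocampal neurons were 867 to 1502 CPM (counts relative to the library total after TMM scaling) in every library, and Fkbp5 averaged 29.4 ± 4.04 CPM in KO LPS and 66.1 ± 4.84 CPM in WT LPS libraries (SD, n = 5 each), 30.6 ± 4.45 in KO saline and 63.0 ± 6.71 in WT saline libraries. Fkbp5 was lower in KO than in WT libraries after LPS (log2 fold change -1.17, edgeR adjusted p = 7.05e-06) but not at 0. In all groups, replicates 1 and 2 stood apart from replicates 3 to 5. The share of mitochondrial counts was 4.66 to 5.68% in the 8 libraries of replicates 1 and 2 and 8.41 to 11.4% in the 12 of replicates 3 to 5, and the libraries of the sets fell on opposite sides of the first principal component (52.9% of variance). The labels do not say what the numbers stand for. Results on the members are given with both sets and within each.

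Saa3 (ENSMUSG00000040026) lies on the minus strand at chr7:46711998-46715700 of GRCm38, and Lcn2 (ENSMUSG00000026822) on the minus strand at chr2:32384633-32388252, both as protein-coding genes that no other annotated gene overlaps. The 250 bases before the RefSeq start of each gene (GRCm38.p6, chr7:46715677-46715926 for Saa3 and chr2:32387740-32387989 for Lcn2, both minus strand) are shown because both genes were higher after LPS. By the coordinates above, the Lcn2 window lies wholly inside the annotated gene, and the Saa3 window overlaps the first bases of the annotated gene. Positions are relative to the RefSeq start, which differs from the annotated start of the gene. Capitals mark the match to the C/EBP motif TTGCNNAA, searched on both strands.
Saa3: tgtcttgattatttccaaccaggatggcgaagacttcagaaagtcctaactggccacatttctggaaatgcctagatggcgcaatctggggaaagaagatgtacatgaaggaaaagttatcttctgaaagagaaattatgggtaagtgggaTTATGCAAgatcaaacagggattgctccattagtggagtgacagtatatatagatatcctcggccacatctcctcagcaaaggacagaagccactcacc
Lcn2: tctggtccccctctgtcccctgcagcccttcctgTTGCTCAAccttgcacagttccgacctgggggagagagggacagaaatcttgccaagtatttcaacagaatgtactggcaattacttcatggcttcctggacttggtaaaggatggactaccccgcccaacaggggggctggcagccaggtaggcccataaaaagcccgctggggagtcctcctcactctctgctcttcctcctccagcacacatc
The match lay on the opposite strand in Saa3, from -99 to -92 relative to the start, and on the gene's own strand in Lcn2, from -216 to -209. The same motif was found in 9.56% of 32851 mouse promoters of that length, and the windows of Saa1, Saa2 and Saa4 held it too. The NF-kB consensus (3.9% of promoters), the STAT motif TTCNNNGAA (7.02%) and TATAAA (12.4%) were searched in the same way without a match in either window. Saa3 resembles its relatives in sequence. Its transcript matched that of Saa1 at 81.3% identity over 284 bases and that of Saa2 at 80.0% over 285 bases, and how reads fitting several genes were treated is not given in the sources used here. No other gene's transcript matched at least 20% of the Lcn2 transcript.

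Saa3 was counted in all 10 LPS libraries and in none of the 10 saline libraries. The deposited counts were 92, 61, 16, 19 and 16 in KO LPS replicates 1 to 5 and 48, 69, 7, 16 and 3 in WT LPS replicates 1 to 5, against 0 in each of the 5 KO saline and 5 WT saline libraries. No LPS library overlapped a saline library, which the choice of Saa3 by this contrast favours. The share of all genes without such overlap is not given here. In CPM the KO LPS libraries had 3.33, 2.09, 0.872, 1.07 and 1.00, and the WT LPS libraries 1.89, 2.80, 0.451, 0.959 and 0.196. Group means were 1.67 ± 1.04 CPM in KO LPS and 1.26 ± 1.08 CPM in WT LPS libraries (SD, n = 5 each). A count of 0 over a whole group allowed up to 0.0284 CPM in KO saline and 0.0314 CPM in WT saline libraries, from 3 counts over the group. Over the whole group, the summed count divided by the summed scaled totals gave 1.87 CPM in KO LPS and 1.46 CPM in WT LPS libraries. Set against the limits, these values gave a bound of 66.0-fold for Saa3 after LPS in KO and 46.7-fold in WT libraries. The LPS values enter this bound without an error. The bound depends on how many libraries share the limit: taken as 3 counts in each saline library it was 12.7-fold in KO and 9.20-fold in WT, and in replicates 3 to 5 alone it was 17.8-fold in KO and 9.48-fold in WT. Limits and intervals cover counting error only, and the spread between LPS libraries is not in the bound.

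Lcn2 had counts on both sides. KO LPS replicates 1 to 5 had 15, 3, 14, 10 and 7 counts and WT LPS replicates 17, 18, 5, 12 and 14, against 3, 1, 3, 2 and 6 in KO saline and 2, 1, 0, 1 and 4 in WT saline replicates. In CPM this was 0.542, 0.103, 0.763, 0.564 and 0.439 in KO LPS and 0.669, 0.729, 0.322, 0.719 and 0.913 in WT LPS libraries, against 0.109, 0.0426, 0.144, 0.128 and 0.331 in KO saline and 0.0912, 0.0461, 0, 0.0591 and 0.245 in WT saline libraries. All 5 WT LPS libraries lay above all 5 WT saline libraries, which the choice of Lcn2 by this contrast favours. The share of all genes that separate in this way is not given here. In KO mice 4 of the 5 LPS libraries lay above every saline library, and replicate 2, with 0.103 CPM, lay inside the saline range. Means were 0.482 ± 0.242 CPM in KO LPS and 0.671 ± 0.216 in WT LPS libraries, against 0.151 ± 0.108 in KO saline and 0.0882 ± 0.0933 in WT saline libraries (SD, n = 5 each). The log2 fold change of LPS over saline was 1.66 ± 0.58 in KO and 2.90 ± 0.62 in WT libraries (SE, edgeR fit). The WT value rests on 8 counts in saline, and it was 3.59 without WT saline replicate 5, which held 4 of them.

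**Figure D1:**
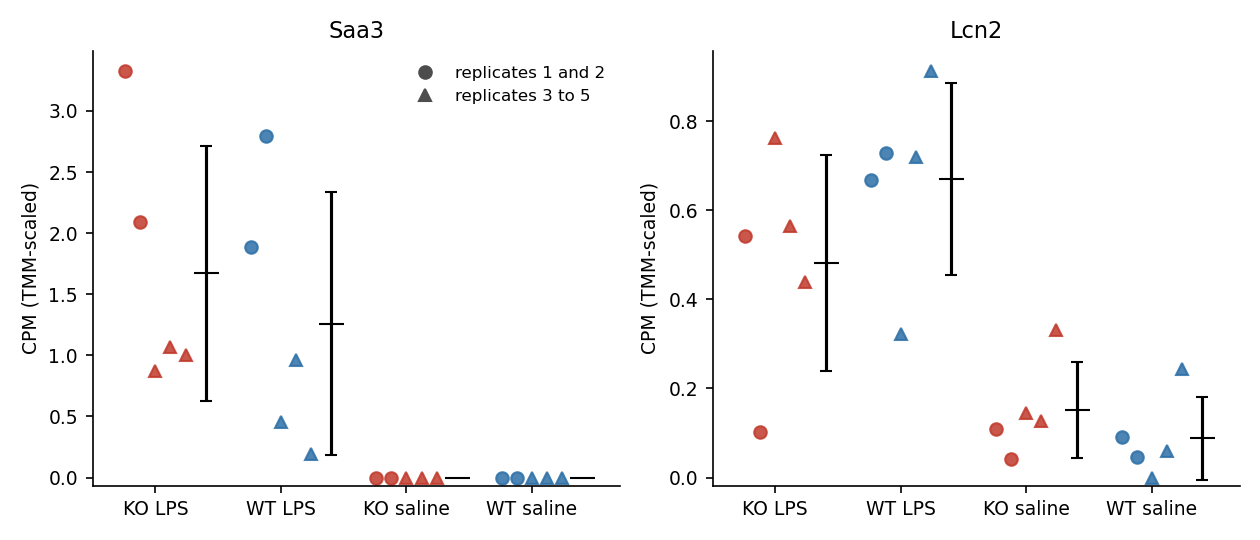
Saa3 (left) and Lcn2 (right) in every library as TMM-scaled CPM on linear axes, for KO LPS, WT LPS, KO saline and WT saline libraries from left to right; circles are replicates 1 and 2, triangles replicates 3 to 5, red is KO, blue is WT, and the black bars are mean ± SD (n = 5). Saa3 is at 0 in all 10 saline libraries and between 0.196 and 3.33 CPM after LPS, while Lcn2 in all LPS libraries except KO LPS replicate 2 is above the saline range of the same genotype.

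Both genes passed the filter on low counts through the LPS libraries. A count of 10 or more was reached in 8 of 10 LPS libraries for Saa3 and in 7 of 10 for Lcn2, and the highest saline count was 0 for Saa3 and 6 for Lcn2. A level per length depends on which annotated transcripts give the length. All annotated exons together cover 2606 bases in Saa3 and 2623 in Lcn2, whereas the principal protein-coding transcript has 555 bases in Saa3 and 915 in Lcn2. Per kilobase of all exons, Saa3 averaged 0.642 CPM in KO LPS and 0.483 CPM in WT LPS libraries, and Lcn2 0.184 CPM in KO LPS and 0.256 CPM in WT LPS libraries. Per kilobase of the principal transcript, the means were 3.01 CPM in KO LPS and 2.27 CPM in WT LPS libraries for Saa3, and 0.527 CPM in KO LPS and 0.733 CPM in WT LPS libraries for Lcn2. The mean of Saa3 was above that of Lcn2 in both LPS groups on either scale, and the gap was larger on the second.

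No difference between KO and WT was detected after LPS for either gene. There the edgeR log2 fold change of KO over WT was 0.39 ± 0.62 for Saa3 and -0.50 ± 0.50 for Lcn2 (SE), each with an adjusted p of 1.00 in edgeR's quasi-likelihood test, in a comparison that called 0.146% of the genes tested (0.0305% lower in KO). The exact two-sided permutation test of the CPM gave p = 0.548 for Saa3 and p = 0.238 for Lcn2 (adjusted over 6 such tests, 0.548 and 0.476). KO LPS libraries were higher in Saa3 and lower in Lcn2 on average, with overlapping groups in both. In this fit, which has no term for the library set, the sign for Saa3 rested on 1 library: without KO LPS replicate 1 the log2 fold change was -0.02. With a library set term and all libraries it was 0.51 ± 0.34 (SE). It was 0.21 ± 0.44 in replicates 1 and 2 alone and 0.84 ± 0.51 in replicates 3 to 5 alone, and none of these was called. For Lcn2 the log2 fold change was -0.22 without KO LPS replicate 2. In saline Lcn2 had a log2 fold change of 0.74 ± 0.70 for KO over WT (edgeR adjusted p = 1.00, exact permutation p = 0.381, adjusted 0.548), and that comparison called 0.171% of genes. This value rests on 15 counts in KO saline and 8 in WT saline libraries, of a gene that passed the filter through the LPS libraries, so these counts can show little about the genotypes in saline. It was 0.27 without KO saline replicate 5, 0.44 without WT saline replicate 3 and 1.44 without WT saline replicate 5. The change of the LPS effect with genotype was -1.24 ± 0.87 for Lcn2 and did not pass the test (edgeR adjusted p = 1.00). No gene (0%) did, against 182 at an unadjusted p under 0.05 and 0 in DESeq2. Chance alone would put a share of 0.05 of the 16419 genes tested under that p, which is more than 182. In a fit this cautious, a gene that is not called is not shown to be unchanged. For Lcn2 the change of the LPS effect uses the same saline counts. It was -0.77 without KO saline replicate 5 and -1.93 without WT saline replicate 5. For Saa3 no such value can be given, since both saline groups are at 0.

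Within the library sets the genotypes compared as follows. Saa3 averaged 2.71 CPM in KO LPS and 2.34 CPM in WT LPS replicates 1 and 2 (n = 2 each), and 0.982 ± 0.102 CPM in KO LPS and 0.535 ± 0.389 CPM in WT LPS replicates 3 to 5 (SD, n = 3 each; exact permutation p = 0.2, where 0.1 is the smallest p possible). Of replicates 3 to 5, the KO LPS values of 0.872 to 1.07 CPM overlapped 1 WT value, 0.959 CPM. Lcn2 averaged 0.322 CPM in KO LPS and 0.699 CPM in WT LPS replicates 1 and 2 (n = 2 each). These did not overlap, but the exact permutation p was 0.333, the smallest p possible with so few libraries. In replicates 3 to 5 Lcn2 averaged 0.588 CPM in KO LPS and 0.651 CPM in WT LPS libraries, with overlap (exact permutation p = 0.8). Exact permutation of the genotypes within the sets, added after the values were seen, gave p = 0.217 for Saa3 and p = 0.25 for Lcn2.

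Saa3 differed between the library sets, and no such difference was detected for Lcn2. In LPS libraries Saa3 was 1.89 to 3.33 CPM in the 4 of replicates 1 and 2 and 0.196 to 1.07 CPM in the 6 of replicates 3 to 5, without overlap. The means were 2.52 ± 0.661 CPM in replicates 1 and 2 and 0.759 ± 0.353 CPM in replicates 3 to 5 (SD), a 3.33-fold difference (exact two-sided permutation p = 0.0048, the smallest that 4 against 6 libraries can give; adjusted over 6 tests 0.0286). Replicates 1 and 2 held 77.8% of the 347 Saa3 counts after LPS (95% exact binomial interval 73.1 to 82.1%) but 46.7% of the total counts. In the edgeR fit the log2 difference was 1.78 ± 0.34 (adjusted p = 9.47e-04), and 52.8% of all genes tested were called between the sets, 27.8% higher in replicates 1 and 2, so a difference between the sets is common. Lcn2 was 0.103 to 0.729 CPM in replicates 1 and 2 and 0.322 to 0.913 CPM in replicates 3 to 5 (mean 0.511 CPM in replicates 1 and 2 and 0.620 CPM in replicates 3 to 5, exact permutation p = 0.505, adjusted 0.548). Replicates 1 and 2 held 46.1% of its LPS counts. On plain library totals the Lcn2 difference changed sign, to 0.0174 CPM.

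Several other measures moved with the sets. In LPS libraries the 6 monocyte and macrophage markers summed to 13.6 to 21.5 CPM in replicates 1 and 2 and 7.63 to 15.2 CPM in replicates 3 to 5. Lyz2, the lysozyme of myeloid cells, was 11.8 to 19.3 CPM in the first set and 4.47 to 11.2 CPM in the second, without overlap. It is one of the 6 markers, and the other 5 summed to 1.82 to 4.93 CPM in replicates 1 and 2 and 2.64 to 4.43 CPM in replicates 3 to 5, with overlap. Most of that sum was Cd52, which averaged 3.28 CPM in KO LPS and 2.28 in WT LPS libraries. Microglial markers went the other way from Lyz2, with 237 to 326 CPM in replicates 1 and 2 and 375 to 474 CPM in replicates 3 to 5. The astrocyte markers summed to 3225 to 5113 CPM in replicates 1 and 2 and 5806 to 6575 CPM in replicates 3 to 5, and the markers of hippocampal neurons to 867 to 1194 CPM in replicates 1 and 2 and 1248 to 1502 CPM in replicates 3 to 5, both without overlap. Gfap, an intermediate filament of astrocytes, overlapped, at 460 to 570 CPM in replicates 1 and 2 and 459 to 580 CPM in replicates 3 to 5. The part of these and of the mitochondrial share in the Saa3 difference was not tested.

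**Figure D2:**
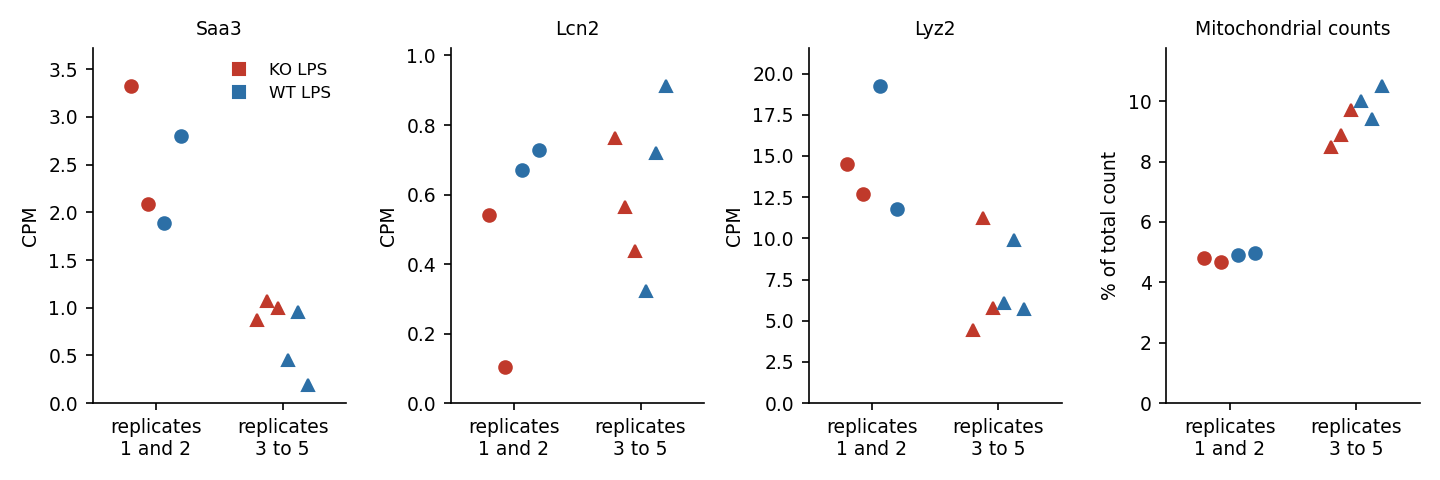
The 10 LPS libraries split into replicates 1 and 2 (circles, n = 4) and replicates 3 to 5 (triangles, n = 6), with Saa3, Lcn2 and Lyz2 in TMM-scaled CPM and mitochondrial counts as a percentage of the total count; red is KO LPS, blue is WT LPS. The sets do not overlap in Saa3 (1.89 to 3.33 against 0.196 to 1.07 CPM), Lyz2 or the mitochondrial share, and they overlap in Lcn2.

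No correlation between Saa3 and Lcn2 was detected among the LPS libraries. Over these 10 libraries the log2 CPM of both genes had a Pearson r of -0.24 (permutation p = 0.507) and a Spearman rho of -0.32 (permutation p = 0.367), and r was -0.46 without the 2 libraries farthest from the median Saa3 (permutation p = 0.247). In the 6 libraries of replicates 3 to 5 r was -0.23 (exact permutation p = 0.651), and both r have an adjusted p of 0.651 over the pair of tests. Without WT LPS replicate 5, the library with the lowest Saa3 and the highest Lcn2, r was 0.01. The ratio of their counts within a library needs no scaling for depth. It is a ratio of counts and not of levels per length, and a gene's length is the same in every library. KO LPS replicates 1 to 5 had 6.13, 20.3, 1.14, 1.90 and 2.29 Saa3 counts per Lcn2 count, and WT LPS replicates 2.82, 3.83, 1.40, 1.33 and 0.214. Saa3 had the higher count in 9 of 10 LPS libraries. The ratio was 2.82 to 20.3 in replicates 1 and 2 and 0.214 to 2.29 in replicates 3 to 5. Its mean log2 was 1.85 in KO LPS and 0.42 in WT LPS libraries (difference 1.43, exact permutation p = 0.230, adjusted 0.476; p = 0.05 when permuted within the library sets, chosen after the values were seen). The difference was 0.77 without WT LPS replicate 5 and 0.81 without KO LPS replicate 2.

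**Figure D3:**
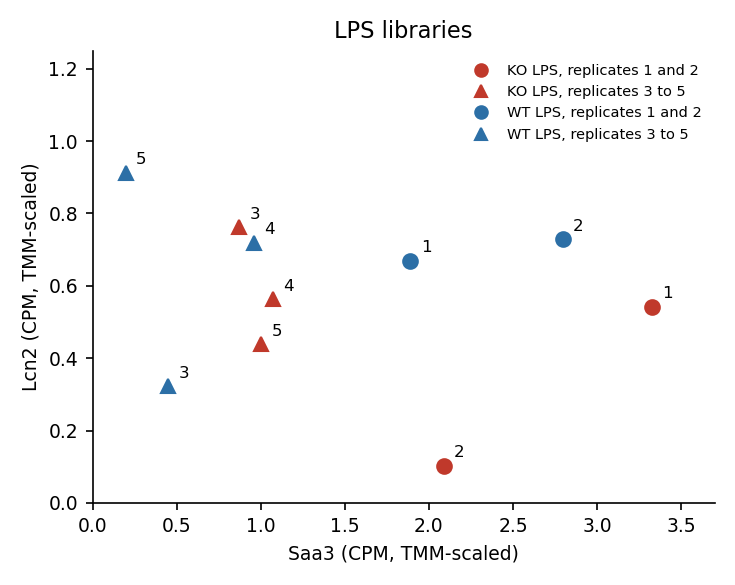
Lcn2 against Saa3 in the 10 LPS libraries, both in TMM-scaled CPM on linear axes; each point is 1 library with its replicate number, red is KO LPS, blue is WT LPS, circles are replicates 1 and 2 and triangles replicates 3 to 5. The Pearson r of log2 CPM is -0.24. KO LPS replicate 2 combines 2.09 CPM of Saa3 with 0.103 CPM of Lcn2, and WT LPS replicate 5 has 0.196 CPM of Saa3 with 0.913 CPM of Lcn2.

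The relatives of Saa3 were hardly counted, and the neighbours of both members were counted at like levels in all groups. Saa1 had 9 counts in all in KO LPS and 2 in WT LPS libraries, against 3 in KO saline and 8 in WT saline libraries. Saa2 had 2 in KO LPS and 1 in WT LPS, against 1 in KO saline and 10 in WT saline libraries. Saa4, which encodes the constitutive family member, had no count in any library. All 3 were too low to be tested. The nearest gene on the other side of Saa3 is Saal1, 1318 bases away, which averaged 11.9 CPM in KO LPS and 12.3 CPM in WT LPS, against 11.0 in KO saline and 12.3 in WT saline libraries. Beside Lcn2 lie 1110008P14Rik, 2695 bases away, and Ptges2, 7644 bases away, a prostaglandin E synthase gene. Their log2 fold changes of LPS over saline over both genotypes were 0.05 ± 0.08 and -0.01 ± 0.12 (SE), not called (edgeR adjusted p = 1.00 for each).

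**Figure D4:**
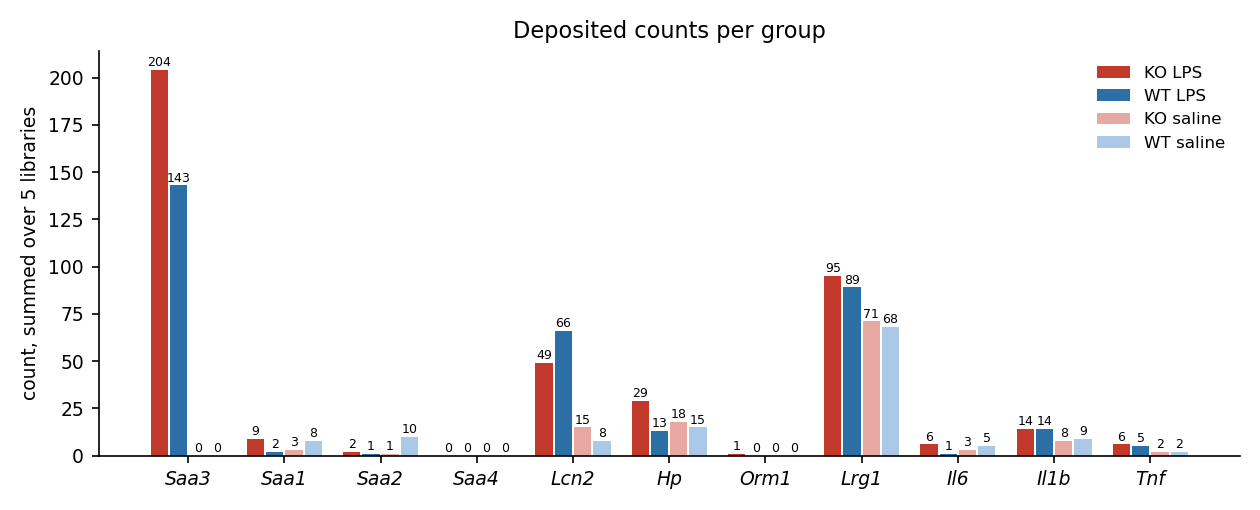
Deposited counts summed over the 5 libraries of each group, for Saa3 and its relatives, Lcn2, other acute-phase genes and 3 cytokines, with KO LPS, WT LPS, KO saline and WT saline bars from left to right on a linear axis from 0. Saa3 has 204 counts in KO LPS and 143 in WT LPS and none in saline, while Saa1 and Saa2 stay at 10 counts or fewer in every group and Saa4 has none.

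Among the signals that induce both genes, the transcripts of the cytokines Il6, Il1b and Tnf were near the limit of detection on day 7. Il6 summed to 6 counts in KO LPS and 1 in WT LPS, against 3 in KO saline and 5 in WT saline libraries. Il1b summed to 14 in KO LPS and 14 in WT LPS, against 8 in KO saline and 9 in WT saline. Tnf, which lies within 20 Mb of Fkbp5 on chromosome 17, summed to 6 in KO LPS and 5 in WT LPS, against 2 in KO saline and 2 in WT saline libraries. None of the 3 was tested. The interleukin-1 cytokine gene Il1a passed the filter. It averaged 0.599 CPM in KO LPS and 0.553 in WT LPS, against 0.348 in KO saline and 0.427 in WT saline libraries. Of the 20 listed cytokines, receptors and adaptors upstream, 14 were tested and none was called for LPS over both genotypes, where 0.0426% of all genes were called. Their median log2 fold change was 0.10, against -0.0019 over all genes tested. Cd14, the co-receptor that presents LPS to TLR4, averaged 4.09 ± 0.879 CPM in KO LPS and 3.76 ± 0.801 in WT LPS, against 2.42 ± 0.527 in KO saline and 2.79 ± 0.631 in WT saline libraries, a log2 fold change of 0.59 ± 0.15 (SE, edgeR adjusted p = 0.506; 0.0263 with the replicate number as a block). The log2 fold changes were 0.56 ± 0.34 for Il1a, an interleukin-1 cytokine, 0.22 ± 0.13 for Myd88, the adaptor of Toll-like and IL-1 receptors, and 0.20 ± 0.12 for Tnfrsf1a, a TNF receptor. They were 0.17 ± 0.24 for Tlr4, the LPS receptor, 0.12 ± 0.10 for Il6ra and -0.01 ± 0.10 for Il1r1, receptors of IL-6 and IL-1 (edgeR adjusted p = 1.00 for each of the 6).

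None of the 15 transcription factors and feedback inhibitors, all tested, was called for LPS over both genotypes, where 0.0426% of all genes were called. Their median log2 fold change was 0.09. Socs3, the feedback inhibitor of STAT3 signalling, averaged 1.08 ± 0.434 CPM in KO LPS and 1.41 ± 0.522 in WT LPS, against 1.06 ± 0.119 in KO saline and 0.903 ± 0.426 in WT saline libraries (log2 fold change 0.34 ± 0.24). The NF-kB subunit genes Rela and Nfkb2 had 0.14 ± 0.07 and 0.21 ± 0.15, and Stat3 had 0.14 ± 0.08. Nfkbia, which encodes an inhibitor of NF-kB, had 0.10 ± 0.08 and Nfkbiz, whose product is needed for induction of Lcn2, had 0.18 ± 0.43. Cebpb and Cebpd had 0.09 ± 0.08 and 0.07 ± 0.10 (SE; edgeR adjusted p = 1.00 for each of these genes).

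Most genes listed for the wider acute-phase programme were too low to be tested. Of 24 listed acute-phase genes other than the members, 9 were tested and 0 called for LPS over both genotypes. That comparison called 0.0426% of all genes, so 0 calls among so few genes says little about the programme. Of these 9, 8 had a log2 fold change above 0, with a median of 0.24. C3, the central complement component, averaged 1.30 ± 0.344 CPM in KO LPS and 0.856 ± 0.288 in WT LPS, against 0.569 ± 0.467 in KO saline and 0.525 ± 0.236 in WT saline libraries (log2 fold change 0.98 ± 0.33, edgeR adjusted p = 1.00). Itih3, a hyaluronan-binding serum protein gene, had 0.47 ± 0.20, Lrg1, a leucine-rich glycoprotein gene, 0.34 ± 0.26 and A2m, a protease inhibitor gene, 0.31 ± 0.20 (SE; edgeR adjusted p = 1.00 for each). A2m was higher in KO than in WT saline libraries with the replicate block (log2 fold change 1.26 ± 0.23, edgeR adjusted p = 0.0112), and it missed the threshold without it (1.25 ± 0.28, edgeR adjusted p = 0.127). Hp, which encodes the haemoglobin-binding haptoglobin, summed to 29 counts in KO LPS and 13 in WT LPS, against 18 in KO saline and 15 in WT saline libraries. Orm1, an orosomucoid gene, had 1 count in all. Neither was tested.

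Of the receptors that serum amyloid A is reported to use, Tlr2 rose. Tlr2, the Toll-like receptor for bacterial lipoproteins, averaged 2.23 ± 0.701 CPM in KO LPS and 2.14 ± 0.357 in WT LPS, against 0.689 ± 0.167 in KO saline and 1.18 ± 0.607 in WT saline libraries (SD, n = 5 each). The log2 fold change over both genotypes was 1.28 ± 0.22 (SE, edgeR adjusted p = 0.0377), in a comparison that called 0.0426% of all genes tested. Tlr2 was the only call there among the 6 tested of 7 listed receptors and among all listed pathway genes. The call was lost, with adjusted p of up to 0.109, when any single library was left out except WT saline replicates 1 and 5, WT LPS replicates 2 and 5, KO saline replicate 5 and KO LPS replicate 4, while the log2 fold change stayed between 1.18 and 1.42. Ager, within 20 Mb of Fkbp5, had 0.67 ± 0.42, the scavenger receptor gene Cd36 -0.45 ± 0.33 and the ATP-gated channel gene P2rx7 0.14 ± 0.12 (SE, edgeR adjusted p = 1.00 for each). Fpr2, a formyl peptide receptor gene within 20 Mb of Fkbp5, summed to 8 counts in KO LPS and 9 in WT LPS, against 3 in KO saline and 1 in WT saline libraries, and was not tested.

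The receptors and partner of lipocalin 2 and the iron-handling genes listed with them were present at very different levels. None of the 10 listed, all tested, was called for LPS over both genotypes (median log2 fold change 0.07), where 0.0426% of all genes were called. Slc22a17, the lipocalin 2 receptor, averaged 784 ± 100.5 CPM in KO LPS and 747 ± 154 in WT LPS, against 739.9 ± 117 in KO saline and 759.8 ± 116 in WT saline libraries. Lrp2, the endocytic receptor megalin, averaged 1.24 CPM in KO LPS and 0.671 in WT LPS, against 0.909 in KO saline and 0.835 in WT saline libraries. Mmp9, whose product forms a complex with lipocalin 2, had a log2 fold change of 0.13 ± 0.17, Slc40a1, the iron exporter, 0.11 ± 0.13, Slc11a2, an iron importer, 0.06 ± 0.08 and Ftl1, the ferritin light chain, 0.08 ± 0.07 (SE, edgeR adjusted p = 1.00 for each). Tfrc, the transferrin receptor that takes up iron, was lower in KO than in WT libraries after LPS, at 73.7 ± 6.95 CPM in KO LPS and 104 ± 4.89 CPM in WT LPS libraries (SD, n = 5 each; log2 fold change -0.50 ± 0.09 SE, edgeR adjusted p = 0.0171). All 5 KO LPS libraries lay below all 5 WT LPS libraries, and the share of all genes without such overlap is not given here. The call was lost without WT LPS replicate 2, 3 or 5 or KO LPS replicate 2, 3 or 4, with adjusted p of 0.0521 to 0.0864. Saline libraries had 80.3 ± 7.35 CPM in KO and 102 ± 10.6 CPM in WT, so Tfrc was also lower in KO there on average. The log2 fold change in saline was -0.34 ± 0.09 (SE, edgeR adjusted p = 0.356, DESeq2 adjusted p = 0.0443). Whether the difference depended on treatment was tested by the interaction, which was not called (edgeR adjusted p = 1.00).

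**Figure D5:**
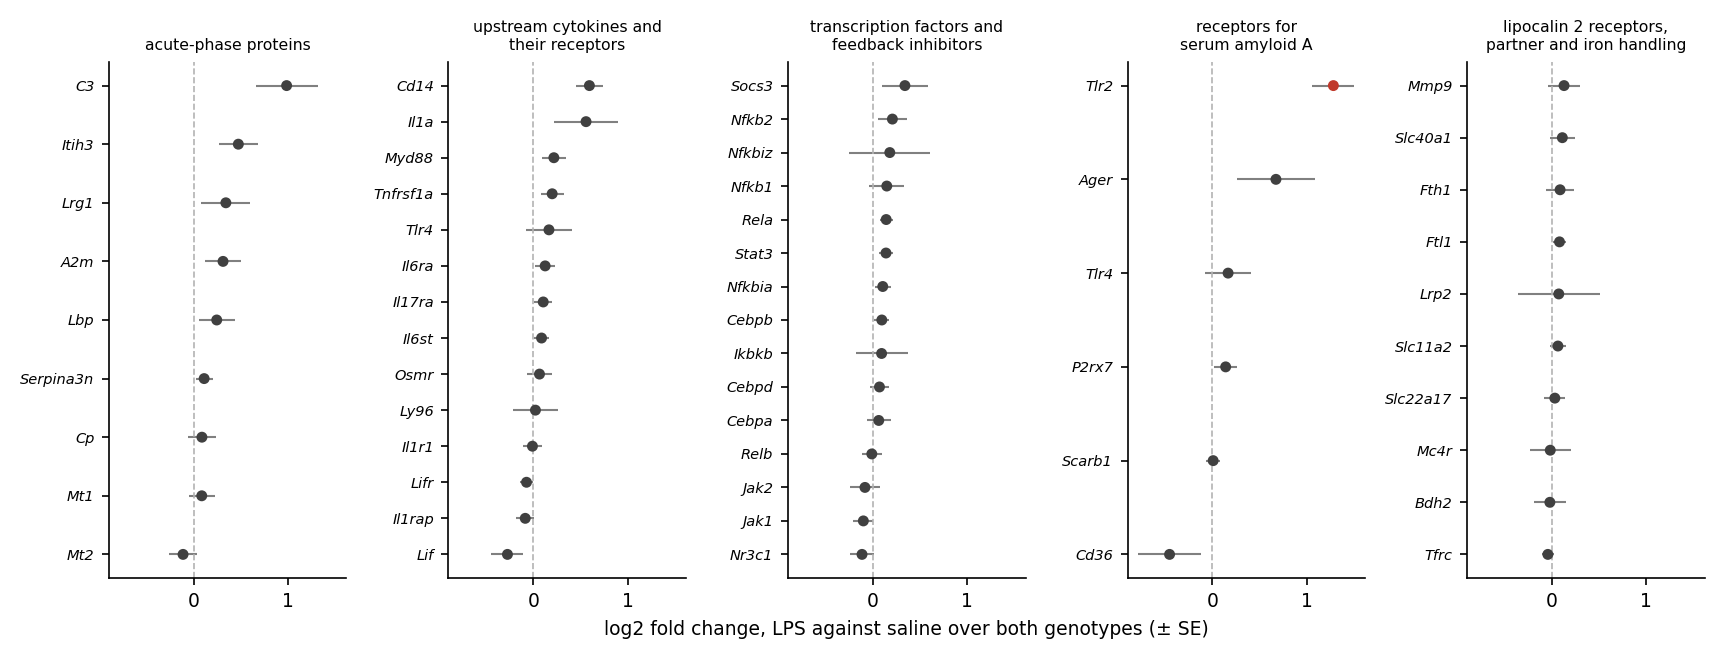
Log2 fold change of LPS over saline over both genotypes, with its SE, for the tested genes of each pathway list; the dashed line is the median of all 16419 genes tested (-0.0019), and a red point marks an adjusted p under 0.05. Tlr2 (1.28) is the single red point, and most other genes lie within 0.5 of the line.

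Some cell types that make these proteins were represented by their markers. The 11 neutrophil markers summed to 0.790 to 1.80 CPM in KO LPS and 1.46 to 2.45 CPM in WT LPS libraries, against 0.362 to 0.884 in KO saline and 0.410 to 2.26 in WT saline libraries. Ly6g, which defines mouse neutrophils, had 0 counts in KO LPS, 4 in WT LPS, 0 in KO saline and 1 in WT saline libraries, and no neutrophil marker reached the level needed for a test. S100a8 averaged 0.345 ± 0.0926 CPM in KO LPS and 0.400 ± 0.306 in WT LPS, against 0.0913 ± 0.0747 in KO saline and 0.294 ± 0.248 in WT saline libraries. S100a9, its partner in neutrophil calprotectin, averaged 0.367 ± 0.198 CPM in KO LPS and 0.452 ± 0.146 in WT LPS, against 0.148 ± 0.0820 in KO saline and 0.230 ± 0.211 in WT saline libraries. The 6 monocyte and macrophage markers summed to 7.63 to 17.8 CPM in KO LPS and 8.70 to 21.5 CPM in WT LPS, against 5.69 to 7.66 in KO saline and 4.28 to 6.02 in WT saline libraries. Without Lyz2 the other 5 summed to 3.16 to 4.93 CPM in KO LPS and 1.82 to 4.43 CPM in WT LPS, against 1.09 to 2.45 in KO saline and 0.829 to 2.56 in WT saline libraries. Most of that sum was Cd52, at 3.28 CPM on average in KO LPS and 2.28 in WT LPS, against 1.55 in KO saline and 1.18 in WT saline libraries. Ly6c2, Ccr2, Plac8 and Chil3 each averaged at most 0.222 CPM in any group. Only 2 of these 6 were tested, and neither was called for LPS over both genotypes, where 0.0426% of all genes were called. Gfap averaged 532 ± 39.7 CPM in KO LPS and 481 ± 31.7 in WT LPS, against 474 ± 78.1 in KO saline and 408 ± 47.6 in WT saline libraries (log2 fold change 0.20 ± 0.08, edgeR adjusted p = 1.00). It does not stand for the astrocyte markers as a whole. Of the 7 listed, all tested, 3 had a log2 fold change above 0 for LPS over both genotypes, with a median of -0.033. Red blood cell markers ranged from 1.05 to 85.6 CPM, with means of 44.5 CPM in KO LPS and 43.2 in WT LPS, against 21.2 in KO saline and 21.9 in WT saline libraries, and the liver markers summed to at most 1.45 CPM with Fabp1 at 0 throughout. The part of these cell types in the member values was not tested, and in bulk tissue more cells of a type and more RNA per cell cannot be told apart.

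The genes most like each member over the 20 libraries were taken by the Pearson r of log2 CPM among the 16419 genes tested, a description that includes the gap between LPS and saline. For Saa3 they were Lyz2 (r = 0.84), Lag3, an inhibitory immune receptor gene (0.84), Rassf4, a Ras-association domain gene (0.82), H2-D1, an MHC class I gene within 20 Mb of Fkbp5 (0.81), and Hpse, the heparan sulfate-cleaving heparanase gene (0.79). Lyz2 averaged 9.72 ± 4.39 CPM in KO LPS and 10.5 ± 5.50 in WT LPS, against 4.97 ± 1.05 in KO saline and 3.81 ± 0.808 in WT saline libraries. Lag3 averaged 14.5 ± 4.15 CPM in KO LPS and 11.4 ± 1.38 in WT LPS, against 6.41 ± 1.02 in KO saline and 5.74 ± 0.451 in WT saline libraries. H2-D1 averaged 53.0 ± 7.37 CPM in KO LPS and 53.9 ± 6.89 in WT LPS, against 31.3 ± 6.25 in KO saline and 34.9 ± 6.44 in WT saline libraries. Rassf4 averaged 7.04 CPM in KO LPS and 7.86 in WT LPS, against 3.65 in KO saline and 3.95 in WT saline libraries. Hpse averaged 0.509 CPM in KO LPS and 0.705 in WT LPS, against 0.291 in KO saline and 0.344 in WT saline libraries. All 5 had higher means in both LPS groups than in either saline group, which a choice by r with Saa3 favours and which is no separate result. Unlike Saa3, all 5 had counts in both saline groups, with Hpse the lowest.

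For Lcn2 the list was different. It held Arhgap19 (0.81), Scrt1, a neuronal transcriptional repressor gene (0.80), Rhog, a small GTPase gene (0.79), Clec4a3, a C-type lectin gene of myeloid cells (0.79), and Gpr84, a fatty acid receptor gene of myeloid cells (0.78). Gpr84 averaged 0.939 ± 0.190 CPM in KO LPS and 1.09 ± 0.370 in WT LPS, against 0.376 ± 0.113 in KO saline and 0.440 ± 0.223 in WT saline libraries. Clec4a3 averaged 1.06 ± 0.401 CPM in KO LPS and 1.03 ± 0.247 in WT LPS, against 0.641 ± 0.197 in KO saline and 0.529 ± 0.241 in WT saline libraries. Arhgap19, Scrt1 and Rhog differed less between groups: Scrt1, for one, averaged 133 CPM in KO LPS and 139 in WT LPS, against 118 in KO saline and 118 in WT saline libraries. The r between Saa3 and Lcn2 was 0.70 over the 20 libraries, which placed Lcn2 21st among the genes like Saa3 and Saa3 18th among those like Lcn2.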

How the data were processed

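Per the submitters' processing notes, reads were trimmed with Trimmomatic 0.38, inspected with FastQC and MultiQC and counted with featureCounts 1.6.0 on mm10. The aligner, annotation and strand setting are not given in the sources used here. Per the labels, libraries were made with NEBNext Ultra reagents from 1 µg of total RNA. The authors deposited raw counts per gene, not normalized, and all 20 columns were used. All 55536 gene IDs matched GENCODE M21 (GRCm38), and 33626 had a count.

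The members and all lists were chosen with earlier results of these data known. Named genes followed a rule: members, neighbours, the 5 genes most like each member, pathway genes called, up to 4 per list with the smallest p, and a standing set. CPM used TMM factors, and log2 CPM a prior count of 2. One edgeR 4.0.16 fit (R 4.3.3; filterByExpr, minimum count 10; robust quasi-likelihood) of all 20 libraries and 16419 genes gave log2 fold changes and Benjamini-Hochberg adjusted p, called under 0.05. The fit was tested on simulated data. Single values used exact permutation (NumPy 2.4.6) and the correlation over 10 libraries 100000 permutations. Sequence matches used blastn 2.17.0.

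Same-numbered libraries of different groups correlated at 0.264 to 0.854 after removal of group means (30 pairs, median 0.462). Other-numbered libraries of the same set correlated about as much (median 0.45), and 11 of 20 libraries correlated best with one of their own number. The labels do not give a pairing, so the replicate block is an alternative fit and its calls are not paired tests. Alternatives were DESeq2 1.42.0, its size factors, other filters, the block, a library set term, each set alone, only the groups compared, leaving out libraries, and plain totals.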

Additional observations from a re-analysis of the deposited data

Results flagged for a closer look

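The difference of Saa3 between library sets is marked for a second look because it was larger after LPS in replicates 1 and 2. The mean of their LPS libraries was 1.77 CPM above that of replicates 3 to 5 (exact permutation of the LPS libraries, p = 0.0048). Saline libraries were at 0 in both sets, so LPS minus saline differed by the same amount. Whether the fold of LPS over saline differed between the sets cannot be told, since a fold over 0 has no value. The edgeR fit gave that log2 difference as 1.78 with an SE of 5126. The value in 1 library stood far from the other 4 of its group for 2 further genes. Socs3 was 1.84 CPM in the highest KO LPS library, and Scrt1 was 126 CPM in the highest WT saline library. Among the 21 genes and 4 groups examined, chance marks about 1 in 20 groups.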

How the results depend on the processing

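Without a term for the replicate number, 1 gene was called for LPS in KO libraries, 0 in WT (340 at an unadjusted p under 0.05, 2 in DESeq2) and 7 over both genotypes, 24 for KO against WT after LPS and 28 after saline. In that order DESeq2 called 7, 2, 19, 53 and 48, the replicate block 5, 3, 27, 63 and 59, and a library set term 7, 3, 24, 54 and 47. The 340 genes in WT were fewer than the share of 0.05 of all genes tested that chance alone would give. Replicates 1 and 2 alone gave 0 for LPS over both genotypes, 4 for genotype after LPS and 3 after saline. Replicates 3 to 5 alone gave 2 for LPS in KO, 118 for genotype after LPS and 500 after saline. A fit of only the groups compared gave 0 for LPS in KO, 14 for genotype after LPS and 18 after saline. Without 3 libraries high in thalamus markers, chosen from earlier results (KO LPS replicate 1, WT LPS replicates 1 and 4) it was 1 for LPS in WT and 1 over both genotypes. The 1 pathway gene called for LPS became 2 under the block and under the set term, and 0 in either set alone and without the 3 libraries. Leaving out 1 library gave 0 to 2, 0 to 1, 4 to 9, 16 to 30 and 19 to 31 genes, and 0 to 1 pathway genes. Beside the calls of Cd14 and A2m, the block added Tlr2 for LPS in KO libraries (log2 fold change 1.71, edgeR adjusted p = 0.0360), and it changed no other call of a listed pathway gene and no genotype call of Saa3 or Lcn2.

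The bound for Saa3, which includes no error of the LPS values, was 12.7-fold (KO) and 9.20-fold (WT) with the limit per library. It was 17.8-fold and 9.48-fold in replicates 3 to 5, and 48.6 to 73.1-fold (KO) and 32.3 to 54.3-fold (WT) without each library. Lcn2 after LPS had log2 fold changes of 1.41 to 2.13 (KO) and 2.59 to 3.59 (WT). Between genotypes, leaving out each library gave -0.0196 to 0.908 for Saa3 and -0.72 to -0.22 for Lcn2 after LPS, 0.27 to 1.44 in saline and -1.93 to -0.77 for the interaction. The Lcn2 difference between library sets was 0.0174 CPM on plain totals and -0.182 to 0.0271 CPM without each library, and r between the genes was -0.394 to 0.0103. Tfrc missed the threshold without a filter (adjusted p = 0.135) and in the fit of only the LPS groups (0.152). The cause of these shifts was not tested. No library reached 1 CPM of Lcn2 (the highest had 0.913 CPM), so it had no value under the stricter filter (1 CPM in 5 libraries). It had none in the fit of the KO groups alone either.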
